A study of Homo sapiens with 5 samples.

Results

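Histone and DNA modifying enzymes were read from polyadenylated RNA of BT474, a long-established human breast cancer line of luminal type with amplified HER2. The members were all genes whose symbol in the table matched a fixed pattern of enzyme family names, and the pattern itself uses no measured value, although it was drawn up with earlier results of these data known. They came to 92 genes on 94 rows, of 18510 genes on 18803 rows in all. By known activity 49 were writers, 38 were erasers, and 5 were subunits or readers (EED, SUZ12, DNMT3L, UHRF1 and UHRF2). Persister cells (3 libraries) were the cells left after 9 days in 2 µM lapatinib, a HER2 and EGFR kinase inhibitor, with the drug renewed every 3 days. Parental cells (2 libraries) were kept over the same period without lapatinib, and both groups received 0.01% DMSO. The replicates are described as biological by the submitters, and all come from 1 cell line. The table gives a single FPKM per gene and group (fragment counts divided by transcript length and library size), so no value below carries an SD or n. It holds neither counts nor values per library, and the depth is unknown. With no shorter treatment and no release from lapatinib, effects of the drug, of arrest and of survival cannot be told apart.

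Chromatin writers add methyl or acetyl groups to histone tails or methyl groups to cytosines in DNA, and erasers take them off. Methyltransferases draw on S-adenosylmethionine and acetyltransferases on acetyl-CoA. Jumonji demethylases and TET enzymes need iron, oxygen and 2-oxoglutarate, and sirtuins need NAD+. In dividing cells, methylation of DNA and of several histone lysines has to be copied onto new chromatin after each round of replication. Histone demethylases, histone deacetylases and EZH2 have all been studied in drug-tolerant cancer cells.

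Genes for copying DNA methylation, EZH2 and the SUV39H enzymes were far lower in persister cells, while most demethylases and sirtuins were modestly higher. UHRF1, EZH2, DNMT3B, DNMT1 and SUV39H2 each fell by over 1 on the log2(FPKM + 1) scale, and EZH1 and HDAC5 rose by over 1. Among 36 erasers covered by the authors' test, 19 rose and 6 fell. Among 47 writers so covered, 15 rose and 18 fell. The 19 erasers include sirtuins of mitochondria, such as SIRT3 and SIRT5. A gene is called here when its q-value in the authors' deposited table is under 0.05. Calls were common: 69.9% of the 13615 genes tested were called, 30.9% higher and 39% lower. Writers (31.9% higher and 38.3% lower) thus had about the background shares, whereas erasers were called higher in 52.8% and lower in 16.7%. For all 87 members tested, 34 (39.1%) were called higher and 27 (31%) lower. A difference of at least 1 was rarer. It was found upward in 2 members (2.3%, against 2.98% of all tested genes) and downward in 5 (5.75%, against 6.02%), so both shares were near those of all genes.

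Direction also depends on scaling. The median difference was -0.12 over the 10158 tested genes with at least 1 FPKM in both groups, and 0.20 once both groups were scaled to the same summed FPKM. With that scaling the 9513 called genes split into 5218 higher and 4295 lower instead of 4205 and 5308. Called writers split into 18 and 15, and called erasers into 21 and 4. The q-values were not recomputed after scaling, so the calls remain those of the comparison as deposited. The 5 called members whose direction turned were KMT5B, NSD1, KDM1B, HDAC1 and DNMT3A, all with small differences. The median difference was 0.02 for writers and 0.18 for erasers, against -0.04 for all genes tested. Relative to the median of genes with at least 1 FPKM, these became 0.13 and 0.29. The medians of both kinds thus lay above that of all genes. Centring moves every gene by the same amount and sum scaling by nearly the same. Neither could therefore be expected to change the order of erasers above writers.

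**Figure D1:**
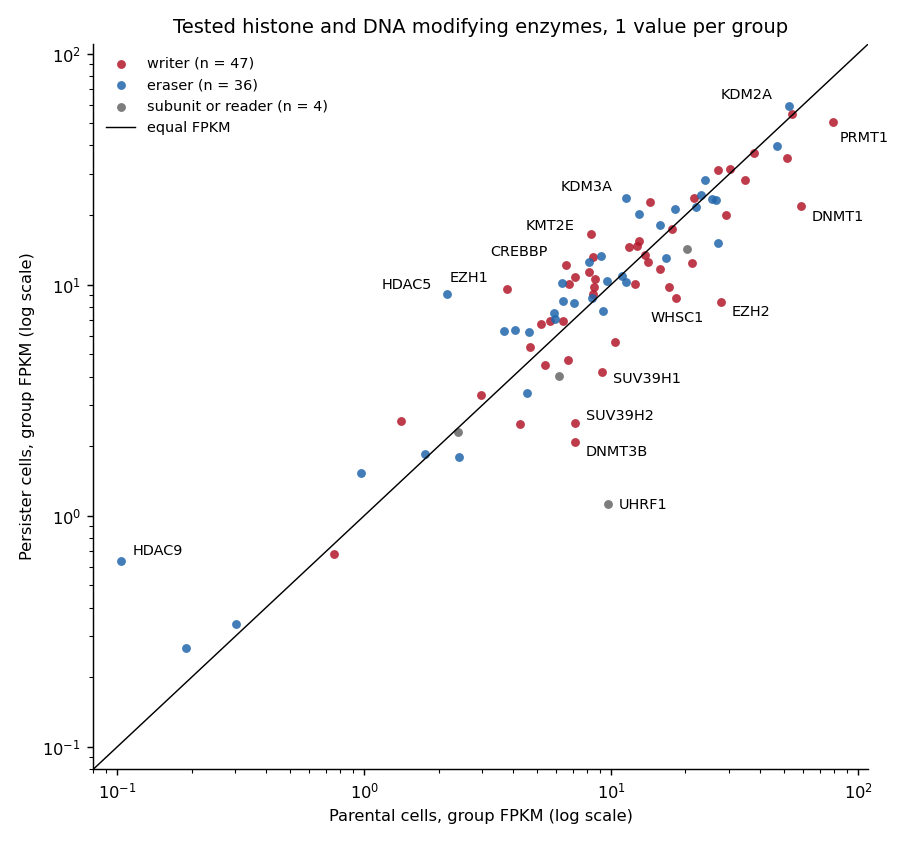
Group FPKM of each tested member in parental cells (horizontal, log scale) and persister cells (vertical, log scale), 1 point per gene; red points are writers, blue points erasers and grey points subunits or readers, and the line marks equal FPKM. UHRF1 (9.67 and 1.13 FPKM) lies farthest below the line, and HDAC5 (2.16 and 9.10 FPKM) and HDAC9 (0.104 and 0.638 FPKM) lie farthest above it.

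Some whole-series values stand beside these results. All 20 genes of a proliferation list were called lower, with a summed level that went from 1192 to 216 FPKM and a median difference of -3.02. MKI67 fell from 12.5 to 0.887 FPKM, CDK1 from 51.9 to 3.72 FPKM and PCNA from 174 to 39.9 FPKM. The part of fewer dividing cells in the results below was not tested, and fewer cells of a kind cannot be told apart from less RNA per cell. All 7 luminal epithelial markers were present, at a summed level of 2332 and 1760 FPKM. Of 6 fibroblast markers 5 stood below 0.02 FPKM in both groups, the exception being COL1A1 (13.4 and 8.73 FPKM). Of 5 immune markers only LYZ (4.61 and 4.06 FPKM) exceeded 0.15 FPKM, and the 4 endothelial markers summed to 1.10 and 0.136 FPKM. ERBB2, the amplified target of the drug, was listed at 0 in both groups, so the table does not show it.

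UHRF1 and the 3 DNA methyltransferases were all called lower, as were 39% of all genes tested. UHRF1 binds DNA methylated on 1 strand only, ubiquitinates histone H3 and recruits DNMT1 to it. It fell from 9.67 to 1.13 FPKM, a difference of -2.33 (8.59 times lower), and ranked 135th from the bottom among all genes tested. DNMT1, the maintenance methyltransferase, fell from 58.6 to 21.8 FPKM, a difference of -1.39 (2.69 times lower). Of the de novo methyltransferases, DNMT3B fell from 7.14 to 2.09 FPKM, a difference of -1.40. DNMT3A changed least, from 5.41 to 4.48 FPKM (difference -0.23, q = 0.0329 in the authors' deposited table), and this call did not hold at a q-value threshold of 0.01 and turned upward to 0.07 when both groups were scaled to the same sum. Summed over the 3 enzymes the level went from 71.2 to 28.4 FPKM. DNMT1 made up 82.4% of that sum in parental and 76.8% in persister cells, and DNMT3A went from 7.60% to 15.8%. UHRF2, the paralog of UHRF1, was not called, at 2.39 and 2.29 FPKM (q = 0.671 in the authors' deposited table). In persister cells UHRF2 was therefore the more abundant of the pair, with 67.1% of their summed FPKM against 19.8% in parental cells. DNMT3L, a cofactor without catalytic activity, was below the range of the test, at 0.0174 and 0.00713 FPKM.

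Of the 2 TET enzymes that the name pattern admits, 1 was called higher (50%, against 30.9% of all genes tested). TET3 lies outside the pattern and was not examined. TET2, which oxidises 5-methylcytosine, rose from 5.86 to 7.55 FPKM, a difference of 0.32. TET1 was low in both states, at 0.302 and 0.339 FPKM, and was not called.

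In Polycomb repressive complex 2, which methylates lysine 27 of histone H3, the catalytic subunits moved in opposite directions. EZH2, the form typical of dividing cells, fell from 27.9 to 8.41 FPKM, a difference of -1.62 (3.32 times lower). EZH1, the form that prevails in resting tissue, rose from 3.80 to 9.57 FPKM, a difference of 1.14 (2.52 times higher). EZH2 made up 88.0% of the summed FPKM of the pair in parental cells and 46.8% in persister cells. The sum itself went from 31.7 to 18.0 FPKM. The core subunits EED and SUZ12, which both enzymes need, fell by less: EED from 6.17 to 4.03 FPKM (difference -0.51) and SUZ12 from 20.3 to 14.3 FPKM (difference -0.48). SUZ12 has a near-identical partial copy in the genome that could share its reads. Of 7 partner proteins of the complex in a separate list, 3 were called lower (42.9%, near the 39% of all genes tested) and 1 higher (14.3%, against 30.9%), with a median of -0.16. PHF19, which guides the complex to chromatin, fell from 16.1 to 3.65 FPKM, the histone chaperone RBBP7 from 131 to 87.9 FPKM, and AEBP2 rose from 4.30 to 6.28 FPKM.

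**Figure D2:**
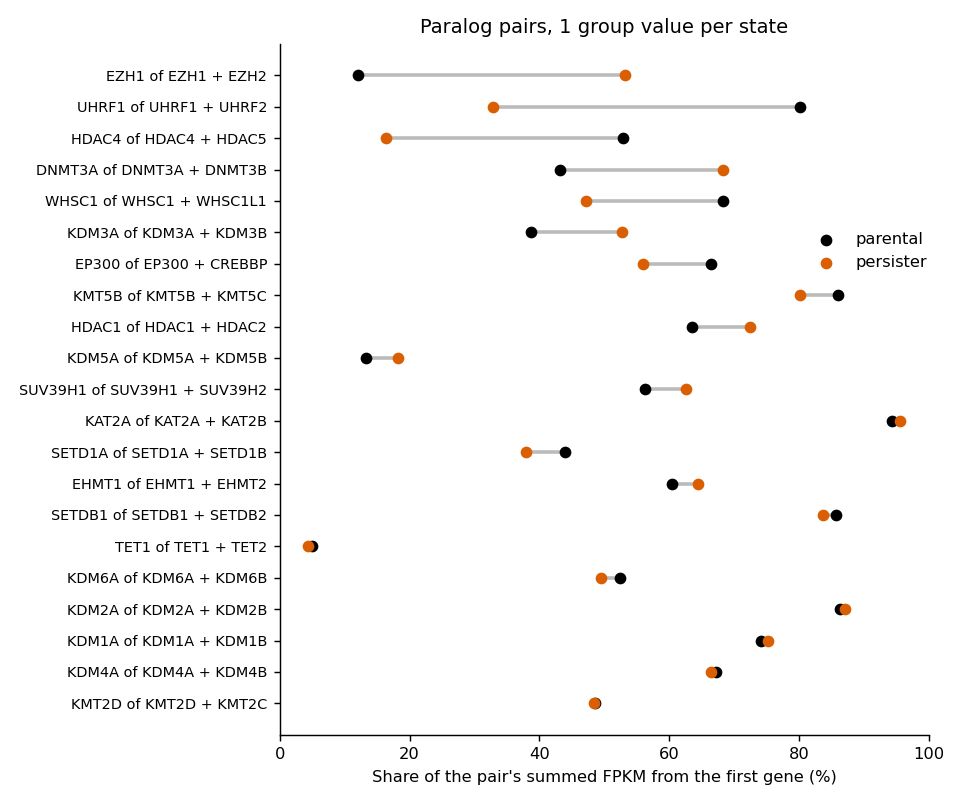
Share of the summed FPKM of 21 paralog pairs that came from the first-named gene (horizontal, percent), in parental cells (black) and persister cells (orange), 1 group value each. EZH1 went from 11.97% to 53.2% of its pair and UHRF1 from 80.2% to 32.9%, while KMT2D stayed at 48.6% and 48.4%.

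Promoter sequence was examined for the members that fell furthest, because genes of the cell cycle often carry E2F sites near their start. The letters TTTCCCGC, TTTGGCGC, TTTGCCGC and TTTCGCGC were searched on both strands of RefSeq promoters (GRCh38.p14, 250 bases before to 50 after each start). Promoters were found for 84 of the 92 members. Of the 5 members that fell by at least 1, UHRF1, EZH2 and DNMT1 held a match. By gene this was 60%, against 10.7% of members and 6.24% of tested genes with a promoter. By promoter, 4 of the 8 promoters of these 5 members held a match (50%), against 7.58% of the 132 promoters of all members. The share was 3.31% of all 35116 promoters and 4.58% of the 15982 promoters of tested genes. WHSC1, the next member in order, held one as well. No other of the 16 members that fell by at least 0.5 did, so 5 of their 24 promoters held a match (20.8%). Of 15 members with a promoter that rose by at least 0.5, EZH1 alone held one, while SUZ12, KDM1B, PRMT7 and SIRT6 were the remaining members with a match. In the proliferation list 8 of 21 promoters held one (38.1%). The members were grouped by their measured change, so these shares are a description. The windows of 30 bases around the matches in UHRF1, EZH2, DNMT1, WHSC1 and EZH1, the members with a match and the largest differences, are shown on the strand of the gene, with the match in capitals.
UHRF1, first promoter, chr19:4909476-4909505, plus strand: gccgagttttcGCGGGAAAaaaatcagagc
UHRF1, second promoter, chr19:4909973-4910002, plus strand: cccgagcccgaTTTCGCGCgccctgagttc
EZH2, chr7:148884272-148884301, minus strand: gggctgccgcgTTTGGCGCtcggtccggtc
DNMT1, chr19:10194937-10194966, minus strand: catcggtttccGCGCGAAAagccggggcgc
WHSC1, chr4:1871305-1871334, plus strand: cggcgcgcactTTTCCCGCggcttctgcga
EZH1, chr17:42745137-42745166, minus strand: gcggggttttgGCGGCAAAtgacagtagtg

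The match spanned the start in DNMT1 and lay 1 to 8 bases after it in EZH2. It lay 7 to 14 bases before the start in the first UHRF1 promoter and 153 to 160 bases before it in the second. In WHSC1 it lay 70 to 77 bases before the start, and in EZH1 108 to 115 bases before it. The remaining promoter of UHRF1 and that of EZH2 held no match. A CCAAT box (CCAAT on either strand), another element common in cell cycle promoters, was found in 62.5% of the 16 members that fell by at least 0.5 and in 40% of those that rose by as much, against 42.9% of tested genes with a promoter. The upstream 150 bases of the EZH2 promoter with the E2F match hold 4 of these, shown here in capitals. The other EZH2 promoter held none, and neither did the EZH1 promoter.
EZH2, chr7:148884292-148884441, minus strand: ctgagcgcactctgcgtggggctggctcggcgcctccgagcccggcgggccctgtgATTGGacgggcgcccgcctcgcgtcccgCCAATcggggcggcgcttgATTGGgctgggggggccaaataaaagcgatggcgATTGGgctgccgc
The cell cycle homology element TTTGAA was found in SUV39H2 alone of the 5 members that fell by at least 1 (12.5% of their promoters), against 10.6% of promoters of tested genes, and in no promoter of the members that rose by at least 0.5. A match is not evidence of binding, and binding was not measured.

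Of 6 methyltransferases for lysine 9 of histone H3, 3 rose (50%, against 30.9% of all genes tested) and 2 fell (33.3%, against 39%). Both SUV39H enzymes, which build constitutive heterochromatin, fell. SUV39H2 went from 7.17 to 2.51 FPKM (difference -1.22) and SUV39H1 from 9.21 to 4.18 FPKM (difference -0.98). The SETDB enzymes, which silence repeats and zinc finger gene clusters with partner proteins, rose. SETDB1 went from 8.42 to 13.2 FPKM (difference 0.59) and SETDB2 from 1.41 to 2.57 FPKM (difference 0.57). Of the G9a family, which makes the lower methylation states, EHMT1 rose slightly from 27.04 to 31.4 FPKM (difference 0.21) and EHMT2 was not called, at 17.7 and 17.3 FPKM. With falls and rises offsetting each other, the summed level of the 6 enzymes came to 70.9 FPKM for the parental group and 71.2 FPKM for the persister group. The share of the SUV39H pair within it shrank, SUV39H1 from 13.0% to 5.88% and SUV39H2 from 10.1% to 3.52%. The transcripts of SUV39H2 and SETDB1 overlap exons of a gene on the opposite strand in GENCODE 29 (DCLRE1C and CERS2), and the libraries did not keep strand.

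Writers of marks on gene bodies and of H4K20 were lower or not called, apart from KMT5C. WHSC1 (NSD2), which dimethylates lysine 36 of histone H3, fell from 18.3 to 8.71 FPKM, a difference of -0.99. Its relative NSD1 went from 12.5 to 10.05 FPKM (difference -0.29), while WHSC1L1 (NSD3, 8.54 and 9.78 FPKM) and SETD2, which makes the trimethyl form (8.43 and 9.08 FPKM), were not called. DOT1L, the methyltransferase of lysine 79, fell from 6.68 to 4.74 FPKM (difference -0.42). KMT5A (SET8), which places the first methyl group on lysine 20 of histone H4 and is needed for cell division, fell from 17.1 to 9.73 FPKM, a difference of -0.75. KMT5B, which adds the later groups, went from 34.9 to 28.2 FPKM (difference -0.29) and KMT5C from 5.65 to 6.98 FPKM (difference 0.26). The falls of NSD1 and KMT5B turned to 0.04 and 0.05 with both groups scaled to the same sum.

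Methyltransferases for lysine 4 of histone H3, which mark promoters and enhancers, were mostly higher. Calls went up in 4 of 6 tested (66.7%, against 30.9% of all genes tested) and down in 1 (16.7%, against 39%). KMT2C rose from 7.12 to 10.7 FPKM (difference 0.53) and KMT2D from 6.74 to 10.1 FPKM (difference 0.52). Both encode large enzymes that act at enhancers, and the ratio between them changed by 0.02 on the log2 scale. KMT2C has partial copies elsewhere in the genome that could share its reads. SETD1B rose from 8.13 to 11.4 FPKM (difference 0.44) and KMT2B from 8.58 to 10.5 FPKM (difference 0.27). SETD1A was not called, at 6.37 and 6.93 FPKM. KMT2A stood at 3.14 and 4.48 FPKM, with its fold set to 1 and its q-value to 1, and was taken as having no estimate. SETD7, a monomethyltransferase that also acts on proteins other than histones, fell from 29.1 to 20.02 FPKM (difference -0.52). Of 11 listed partners of these complexes found and tested, 2 were called lower (18.2%, against 39% of all genes tested) and 1 higher (9.09%, against 30.9%), with differences between -0.37 (HCFC1, 13.2 and 9.98 FPKM) and 0.24 (CXXC1, 15.9 and 18.9 FPKM). WDR5, the shared scaffold, was not called, at 29.7 and 26.5 FPKM.

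SET-domain proteins without an established histone substrate moved both ways. KMT2E, which carries a PHD finger that binds trimethylated lysine 4, rose from 8.28 to 16.6 FPKM, a difference of 0.92. SETD3, which methylates a histidine of actin, fell from 21.2 to 12.4 FPKM (difference -0.73), and SETD9 from 4.28 to 2.49 FPKM (difference -0.60). SETD4, SETD5 and SETD6 were not called, with differences from 0.13 to 0.28. Without these 6 proteins the median of the writers was -0.02, so its sign rests on whether they are counted.

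**Figure D3:**
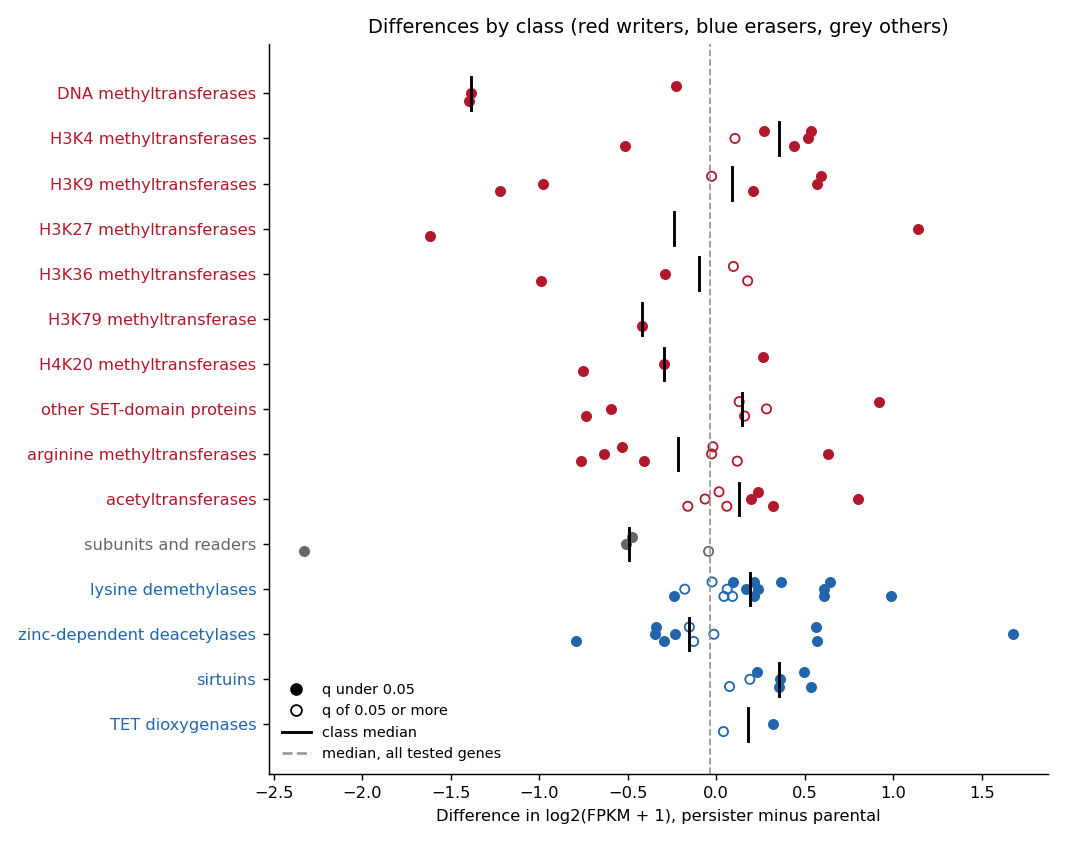
Difference in log2(FPKM + 1), persister minus parental, of each tested member by class (red writers, grey subunits and readers, blue erasers); filled points have a q-value under 0.05, black bars are class medians and the dashed line is the median of all tested genes (-0.04). The 3 DNA methyltransferases lie below 0 (-1.40, -1.39 and -0.23) and the 7 sirtuins above it, from 0.07 to 0.54.

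Of 8 arginine methyltransferases tested, 4 fell (50%, against 39% of all genes tested) and 1 rose (12.5%, against 30.9%). Their median was -0.22, and -0.02 relative to genes of like transcript length and mean FPKM. PRMT1, the main source of asymmetric dimethylarginine, was the most abundant member in parental cells and fell from 78.9 to 50.4 FPKM (difference -0.64). PRMT5, which makes symmetric dimethylarginine, fell from 51.7 to 35.4 FPKM (difference -0.53). The ribosome-associated PRMT3 fell from 10.3 to 5.67 FPKM (difference -0.76) and PRMT6 from 15.8 to 11.6 FPKM (difference -0.41). PRMT2 rose from 14.4 to 22.8 FPKM (difference 0.63). CARM1, PRMT7 and PRMT9 were not called, with differences between -0.03 and 0.12, and PRMT8 was below the range of the test. Beside genes of like transcript length and mean FPKM, whose medians were -0.50 and -0.42, the falls of PRMT1 and PRMT5 were -0.14 and -0.12 in relative terms. The corresponding relative difference of PRMT3 was -0.71.

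Acetyltransferases were higher or not called, with 4 of 8 called higher (50%, against 30.9% of all genes tested). CREBBP rose from 6.55 to 12.1 FPKM, a difference of 0.80 (1.85 times higher). Its paralog EP300 rose less, from 13.0 to 15.5 FPKM (difference 0.24), so that CREBBP went from 33.6% to 44.0% of their summed FPKM. KAT6B rose from 5.22 to 6.77 FPKM (difference 0.32), and KAT2A, the catalytic subunit of the SAGA complex, from 12.7 to 14.7 FPKM (difference 0.20). The call of KAT2A was lost at a q-value threshold of 0.01. KAT7 (53.9 and 54.5 FPKM) was the most abundant of the class and was not called. KAT5, KAT8 and KAT2B were not called either, with differences between -0.16 and 0.06. Of 31 listed partner proteins tested, 10 were called higher (32.3%, against 30.9% of all genes tested) and 9 lower (29%, against 39%), with a median of 0.01. ING4 rose from 7.43 to 23.0 FPKM, JADE3 from 9.69 to 26.5 FPKM and JADE2 from 4.82 to 10.3 FPKM. The largest fall in this list was that of ING2, from 18.4 to 9.42 FPKM. Of the KAT7 companions in it, ING4, JADE2 and JADE3 rose as given above, and MEAF6 rose from 8.49 to 10.8 FPKM (difference 0.31). JADE1, ING5, BRPF1 and BRPF3 were not called, with differences between -0.11 and 0.12.

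Lysine demethylases formed the largest group of erasers and were predominantly higher. Of 16 tested, 10 rose (62.5%, against 30.9% of all genes tested) and 1 fell (6.25%, against 39%), with a median of 0.19. The differences were mostly small. KDM3A, which removes methyl groups from lysine 9 of histone H3, rose most, from 11.5 to 23.6 FPKM (difference 0.98, 2.06 times higher). KDM5A, which acts on lysine 4 and has been linked to drug tolerance, rose from 3.68 to 6.31 FPKM (difference 0.64). KDM4B rose from 6.32 to 10.2 FPKM (difference 0.61) and KDM4A from 12.9 to 20.2 FPKM (difference 0.61), and the ratio of these lysine 9 and 36 demethylases to each other stayed at 67.2% and 66.5% for KDM4A. Smaller rises were called for KDM6B (6.39 to 8.51 FPKM), KDM5B (24.1 to 28.5 FPKM), KDM3B (18.2 to 21.2 FPKM), KDM6A (7.05 to 8.32 FPKM), KDM2A (52.6 to 59.1 FPKM) and KDM4D (0.190 to 0.268 FPKM). Of these, KDM2A and KDM4D were no longer called at a q-value under 0.01. KDM6A and KDM6B erase the mark that EZH1 and EZH2 write.

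The 10 demethylases that rose all belong to the Jumonji family, of which 14 with a KDM name were tested. They made up 71.4% of these (against 30.9% of all genes tested), and none of the 14 was called lower (against 39%). This holds only within the name pattern. Of Jumonji proteins in the separate list of other modifying enzymes, PHF8 (13.9 to 12.1 FPKM), JMJD6 (8.39 to 5.52 FPKM), MINA (11.2 to 7.42 FPKM) and C14orf169 were called lower. PHF2 (8.03 to 9.08 FPKM) was called higher. KDM5C, KDM2B, KDM7A and KDM8 were not called, with differences between -0.02 and 0.09. Both flavin-dependent enzymes had a lower FPKM in persister cells. KDM1B went from 9.24 to 7.68 FPKM (difference -0.24, turning to 0.08 with both groups scaled to the same sum), and KDM1A (LSD1) was not called, at 26.5 and 23.3 FPKM. KDM4E and KDM5D were listed at 0 in both groups. In GENCODE 29, 18 members share exon bases with another coding gene, KDM4A (with AL451062.3) and KDM5A (with CCDC77) among them, so part of their reads may come from elsewhere. Summed over the 18 demethylases, the level went from 220.4 to 259.8 FPKM.

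Of 11 zinc-dependent deacetylases, 5 fell (45.5%, against 39% of all genes tested) and 3 rose (27.3%, against 30.9%). Class I enzymes, the nuclear catalytic subunits of the SIN3, NuRD and CoREST complexes together with HDAC8, were lower or, for HDAC3, not called. HDAC2 fell from 26.97 to 15.1 FPKM (difference -0.79), HDAC8 from 4.57 to 3.40 FPKM (difference -0.34) and HDAC1 from 46.9 to 39.7 FPKM (difference -0.23, turning to 0.11 with both groups scaled to the same sum). HDAC3 was not called, at 25.7 and 23.4 FPKM. HDAC1 thereby rose from 63.5% to 72.4% of the sum of HDAC1 and HDAC2. The 4 class I genes together went from 104 to 81.7 FPKM.

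Class IIa enzymes, which shuttle between nucleus and cytoplasm and bind MEF2 factors, diverged. HDAC5 rose from 2.16 to 9.10 FPKM, a difference of 1.68 (4.21 times higher), and ranked 100th from the top among all genes tested. HDAC9 was low in both states and rose from 0.104 to 0.638 FPKM, a difference of 0.57 that understates a ratio of 6.14. HDAC4 fell from 2.42 to 1.79 FPKM (difference -0.30) and HDAC7 was not called, at 11.04 and 10.92 FPKM. HDAC5 thus went from 13.7% to 40.5% of the summed FPKM of the class, and HDAC7 from 70.2% to 48.7%. The sum of the class increased from 15.7 to 22.5 FPKM. In class IIb, HDAC10 rose from 8.11 to 12.5 FPKM (difference 0.56), and HDAC6, the tubulin deacetylase, was not called, at 11.5 and 10.2 FPKM. HDAC11 fell from 16.8 to 13.0 FPKM (difference -0.35).

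Of 23 partners of the deacetylases tested, 9 were called lower (39.1%) and 7 higher (30.4%), close to the shares of all genes tested (39% and 30.9%), with a median of -0.11. In the SIN3 complex, SAP30 fell from 17.8 to 6.86 FPKM while the scaffold SIN3B rose from 6.40 to 16.1 FPKM. RCOR2, a CoREST protein, fell from 2.51 to 0.675 FPKM.

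All 7 sirtuins had a higher FPKM in persister cells, and 5 of them were called (71.4%, against 30.9% of all genes tested). SIRT5, a mitochondrial desuccinylase, rose from 4.07 to 6.35 FPKM (difference 0.54) and the nuclear deacetylase SIRT1 from 9.11 to 13.3 FPKM (difference 0.50). SIRT4 rose from 0.970 to 1.53 FPKM (difference 0.36), SIRT3, the main mitochondrial deacetylase, from 4.67 to 6.25 FPKM (difference 0.36) and SIRT6 from 5.92 to 7.10 FPKM (difference 0.23). The call of SIRT6 did not hold at a q-value threshold of 0.01. SIRT2 (15.8 and 18.2 FPKM) and SIRT7 (23.1 and 24.4 FPKM), the most abundant of the family, were not called. Their median was 0.36. Beside genes of like length and level each sirtuin was still higher, and the median became 0.45.

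Members that rose had longer transcripts than those that fell, with median lengths of 5516 and 3140 bases. A trend of this kind ran through the whole table. When tested genes were cut by length into 5 equal groups, the median difference was 0.06 in the group with the longest transcripts and -0.16 in that with the shortest. Of the members, 35 lay in the longest group, and among these 18 were called higher and 9 lower. Set against the median of tested genes in the same of 5 groups by length and 5 by mean FPKM, the median of the writers was 0.07 and that of the erasers 0.28. Writers and erasers had similar median transcript lengths (4623 and 4428 bases) and parental levels (10.3 and 8.74 FPKM). This adjustment could therefore remove little of the separation between them. The adjusted differences of UHRF1 (-2.35), EZH2 (-1.46), EZH1 (1.12) and HDAC5 (1.65) were close to those as deposited.

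**Figure D4:**
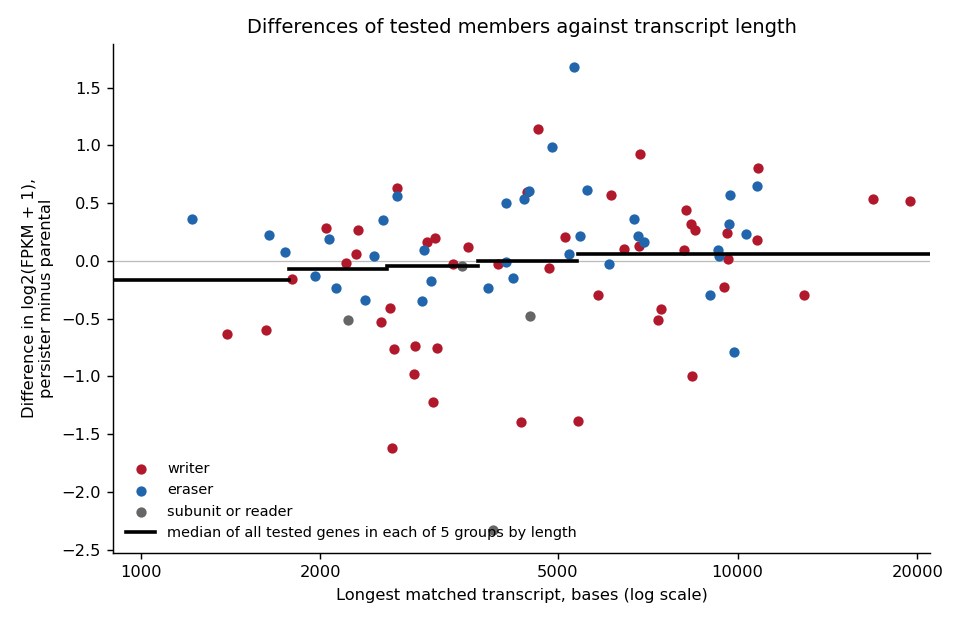
Difference in log2(FPKM + 1), persister minus parental, of each tested member against the length of its longest matched transcript (horizontal, bases, log scale), with black lines for the median of all tested genes in each of 5 groups by length. The lines climb from -0.16 to 0.06, and the members with the largest differences, UHRF1 (-2.33) and HDAC5 (1.68), lie far from them.

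Of 21 paralog pairs with both genes tested, the ratio within the pair changed by at least 1 on the log2 scale in 5 and by under 0.5 in 11. These ratios do not depend on how the groups were scaled. The 5 were EZH1 and EZH2 (3.07), UHRF1 and UHRF2 (3.04), HDAC4 and HDAC5 (2.51), DNMT3A and DNMT3B (1.502), and WHSC1 and WHSC1L1 (1.27). In each of the 5 the gene that was the more abundant in parental cells became the less abundant in persister cells. KMT2C and KMT2D, KDM4A and KDM4B, KDM1A and KDM1B, and KDM2A and KDM2B each changed by 0.10 or less.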

How the data were processed

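Per the submitters' processing notes, the tools were TopHat2 2.0.6, Cuffdiff 2.0.2, Cufflinks and CASAVA 1.8 on build hg18, and their settings are not given there. The deposited table has 1 FPKM value per gene for a whole group, per the file headers. Its q-value comes from the authors' Cuffdiff comparison, whose settings are not stated. Its fold change (persister over parental FPKM, as deposited) served only to find genes without an estimate.

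Differences were computed as log2(FPKM + 1) of persister minus parental cells with Python 3.11.15, pandas 2.3.3 and numpy 2.4.6. A gene counted as tested when its deposited q-value was below 1 and as called when it was under 0.05. No test over libraries could be fitted, as the table holds no value per library. A symbol on several rows was represented by the row of highest mean FPKM (EHMT2 and SIRT7 among the members). Of the members, 87 were tested, 2 were listed at 0, 2 were too low and 1 had no estimate. Full values were planned for tested members with a difference of at least 0.5 (32 genes). Of other genes, only 3 proliferation markers and up to 3 called genes a list were to be named. WDR5, ING2, MEAF6, JADE1, ING5, BRPF1, BRPF3, PHF8, PHF2, JMJD6, MINA, the marker genes and ERBB2 were therefore chosen after their values were seen. Transcript lengths came from GENCODE 29 through RefSeq identifiers (98.1% of tested genes), and its build differs from hg18. The name pattern that gave the members uses no measured value, but the pattern, the division into writers and erasers and the other lists were chosen with earlier results of these data known. The steps were tested on simulated data.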

Additional observations from a re-analysis of the deposited data

How the results depend on the processing

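The counts and medians of members, writers and erasers and the differences of 32 members were recomputed under 7 settings listed in advance and 3 chosen after seeing the data. Class counts, partner lists, paralog shares and motif shares were not. All 32 members with a difference of at least 0.5 kept their direction in each setting that included them, but no setting could have turned it. Sum scaling moves a difference by at most 0.36 and centring by 0.12. The medians of genes of like length and level lay within 0.5 of 0, and a pseudocount or q-value threshold leaves the sign unchanged. No setting recomputed the q-values, and those of the 32 all lay under 0.01, so their calls could not change. The number of members higher by at least 1 was 2 as reported, 4 with a pseudocount of 0.1 or with centring on the all-gene median, and 5 with both groups scaled to the same sum. Without the members that fell by at least 1, the number lower by at least 1 is 0 by construction. The median differences of members, writers and erasers were 0.19, 0.13 and 0.29 after centring, and 0.40, 0.37 and 0.52 after scaling to the same sum. The median of writers was -0.019 without the 6 SET-domain proteins lacking an established substrate on chromatin, a reversal of sign. No such removal was made among the erasers, which kept mitochondrial sirtuins such as SIRT3 and SIRT5. The median of erasers was 0.28 relative to genes of like transcript length and mean FPKM. Other counts stayed within 1.5 times of those reported. No paired analysis was possible because the table holds no values per library, and for the same reason no replicate could be left out. Depth is unknown, so low values such as those of HDAC9, KDM4D and TET1 have no detection limit.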

Other observations

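Enzymes outside the name pattern and the supply of cofactors were read from separate lists. Of 21 other modifying enzymes tested, 10 were called lower (47.6%, against 39% of all genes tested) and 6 higher (28.6%, against 30.9%), with a median of -0.07. PADI2, which converts arginine to citrulline, fell from 53.2 to 15.5 FPKM, and HAT1, which acetylates newly made histone H4, fell from 36.2 to 17.7 FPKM. C14orf169, a Jumonji protein of the nucleolus, went from 11.9 to 6.47 FPKM.

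Of 14 genes for cofactor supply tested, 8 were called lower (57.1%, against 39% of all genes tested) and 3 higher (21.4%, against 30.9%). Their median was -0.26, and -0.04 relative to genes of like transcript length and mean FPKM. Both NADP-dependent isocitrate dehydrogenases, which make 2-oxoglutarate, fell: IDH2 from 126 to 38.7 FPKM and IDH1 from 96.4 to 35.9 FPKM. ACLY, which makes acetyl-CoA outside mitochondria, fell from 69.3 to 27.7 FPKM. The Jumonji demethylases with a KDM name, which use 2-oxoglutarate, had 10 of 14 members called higher in the same comparison (71.4%, against 30.9% of all genes tested). Of Jumonji proteins outside the name pattern, PHF8, JMJD6, MINA and C14orf169 were called lower and PHF2 higher. Levels of the metabolites and of the histone marks were not measured.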
